A study of Homo sapiens with 19 samples.

Results

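Small nucleolar RNA (snoRNA) host transcripts were followed through the splicing tables of human mammary epithelial cells before and after knockdown of AKAP8, an RNA-binding protein of the nucleus, and through maps of where AKAP8 bound RNA. The genes were SNHG1, SNHG5, SNHG6, SNHG7, SNHG8, SNHG12, GAS5 and ZFAS1, found by their symbols: 8 of the 11998 genes of the tables, with 336 of 100238 distinct splicing events. The symbols were chosen by hand with PSI and junction-read results of these tables known, so the tests below describe differences against the spread between libraries and are no independent support. The cells were HMLE Twist-ER, a line of human mammary epithelial cells immortalized with Tert that carries the transcription factor Twist in a form switched on by tamoxifen. Every RNA-seq group carried a lentiviral short hairpin RNA (shRNA) in stable expression, against AKAP8 or with no specific target. Untreated cells were the epithelial state (EPI, 3 control and 3 knockdown libraries), and cells kept in 20 nM tamoxifen were the mesenchymal state (MES, 3 control and 2 knockdown libraries), reached by the epithelial-mesenchymal transition (EMT). AKAP8 binding was mapped in both states by enhanced crosslinking and immunoprecipitation (eCLIP), with 2 replicates and 2 size-matched inputs per state merged into 1 peak list. All groups are 1 engineered line, and the MES state rests on the added Twist alone. The study's methods call the libraries biological replicates and do not say whether they came from separate infections, so p-values measure the spread between these libraries. Libraries are numbered by their place in the tables, and held 31258177 to 40852217 reads over junctions of skipped-exon events.

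Host genes of this kind carry snoRNAs inside their introns. C/D box snoRNAs guide methylation of ribosomal RNA and H/ACA box snoRNAs guide its pseudouridylation; both are trimmed out of the excised intron, so that splicing is needed for their release. What is left after splicing is a polyadenylated RNA with no long reading frame. Many of these RNAs begin with a run of pyrimidines, as the messenger RNAs of ribosomal proteins do, and many are broken down in the cytoplasm by nonsense-mediated decay. RefSeq names 32 snoRNAs for the 8 hosts, 25 of the C/D and 7 of the H/ACA class. GAS5 carries 11, SNHG1 carries 8, SNHG12 carries 4, ZFAS1 carries 3, SNHG5 and SNHG7 carry 2 each, and SNHG6 and SNHG8 carry 1 each. The libraries were made from polyadenylated RNA, and mature snoRNAs were not measured.

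AKAP8 itself was lower in every knockdown library. Its level, in reads over its skipped-exon junctions scaled for library depth, was 244, 310 and 245 in the EPI controls and 121, 98.8 and 125 in the EPI knockdown. In MES cells the level was 382, 196 and 248 in the controls and 108 and 122 in the knockdown. Control and knockdown libraries did not overlap in either state. The log2 fold change was -1.20 in both states, with a standard error (SE) of 0.25 in EPI (adjusted p = 0.066, limma) and of 0.28 in MES (adjusted p = 0.031). The EPI difference passed without MES control 1 (adjusted p = 0.048), and the MES call was lost without EPI control 1 (adjusted p = 0.056), MES control 1 (0.089), MES control 3 (0.062), MES knockdown 1 (0.18) or MES knockdown 2 (0.13). The state labels were checked with marker genes in the controls: 5 of 5 measured epithelial markers were lower in MES and 7 of 7 measured mesenchymal markers were higher. CDH1, the cadherin of epithelial junctions, had a log2 fold change of -4.34, and ZEB1, a repressor of CDH1, had one of 4.29. EPCAM, KRT5, KRT14 and CDH2 had no skipped-exon event in all 3 comparisons, nor had any of the leukocyte or endothelial markers. The summed epithelial markers, led by ESRP1, ran from 7352 to 9806 over the EPI libraries, were 547, 896 and 890 in MES controls, and were 451 and 660 in the MES knockdown. In bulk RNA, fewer cells of a state and less RNA per cell cannot be told apart.

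Most splicing events of the 8 hosts did not pass the test in either knockdown. Inclusion is given as percent spliced in (PSI), the length-corrected share of junction reads that support the longer form. An event was called at a false discovery rate (FDR) under 0.05 and a PSI difference of at least 10 points, from a quasi-binomial test across all events of a type. In the EPI knockdown 2 of 220 tested host events were called, 0.909%, where 0.0446% of all tested events were. In the MES knockdown 1 of 158 was called, 0.633%, beside 0.0506% of all events. In the EMT comparison of the control libraries 3 of 201 were called, 1.49%, beside 1.51% of all events. These calls fell in SNHG8, ZFAS1 and SNHG12. Both EPI calls and 2 of the 3 EMT calls were a pair of SNHG8 events read from the same skipping junction. Each pair is not 2 separate measurements, so the host shares are raised by it. On the FDR alone the host counts were 2, 2 and 6, beside 0.0815%, 0.081% and 2.51% of all events. The events past the FDR alone but under 10 points were all in GAS5. A difference between the knockdowns of the 2 states was called for 3 of 114 host events, beside 0.00989% of all events, in ZFAS1 and in the same SNHG8 pair. The median absolute PSI difference of the host events was 0.264 points in the EPI knockdown, 0.416 in the MES knockdown and 0.298 in EMT, and that of all tested events was 0.777, 1.01 and 0.934. GAS5 alone supplied 157 of the 256 host events listed in the EPI knockdown tables, many of which share junctions. The EPI controls served both the EPI knockdown and the EMT comparison, and the MES controls both the MES knockdown and EMT, so these comparisons are not independent of each other.

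SNHG8, the host of the H/ACA snoRNA SNORA24, skipped an internal exon more often in the EPI knockdown than in EPI controls, and inclusion was lowest in MES cells with or without the knockdown. The exon lies at chr4:119200099-119200292 (GRCh37, plus strand), between exons that end at 119199947 and start at 119200544. It is printed because the largest called difference of the hosts fell on it, with exon bases in capitals and 20 intron bases on each side:
SNHG8 exon: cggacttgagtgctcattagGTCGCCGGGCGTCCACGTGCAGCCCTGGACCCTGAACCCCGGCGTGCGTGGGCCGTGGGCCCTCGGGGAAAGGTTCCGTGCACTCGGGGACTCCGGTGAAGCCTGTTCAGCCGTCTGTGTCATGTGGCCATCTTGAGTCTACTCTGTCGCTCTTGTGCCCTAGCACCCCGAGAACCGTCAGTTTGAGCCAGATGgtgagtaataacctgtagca

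Exon PSI was 76.7, 69.6 and 63.2 in the EPI controls (69.8 ± 6.8, SD, n = 3) and 43.9, 54.5 and 41.6 in the EPI knockdown (46.7 ± 6.9, n = 3). Every knockdown library lay below every control. MES controls had a PSI of 32.4, 32.0 and 37.4 (33.9 ± 3.0, n = 3), and MES knockdown libraries 32.6 and 39.3 (36.0 ± 4.7, n = 2). The MES groups overlapped, and both lay below the EPI knockdown libraries. EPI control 1 had 1636 inclusion and 249 skipping reads, and EPI knockdown 1 had 612 and 391. The PSI difference was -23.1 points in the EPI knockdown (FDR = 5e-11, quasi-binomial test) and -35.9 in EMT (FDR = 1.7e-32). In the MES knockdown it was 3.7 points against the 2 controls of that table (FDR = 0.81) and 2.0 against all 3. The value of 3.7 became 0.4 without MES knockdown 2 and 7.1 without MES knockdown 1. The knockdown differences of the 2 states, set against each other with all 3 MES controls, were 25.1 points apart (FDR = 0.0015). That difference between states missed the threshold without EPI control 1 (FDR = 0.3), EPI knockdown 3 (0.11) or MES knockdown 2 (0.25). With limma on the logit of PSI, which weighs libraries and not reads, the EPI knockdown call was lost (FDR = 0.91), as were those of all other events there, and the EMT call held (FDR = 0.026).

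**Figure D1:**
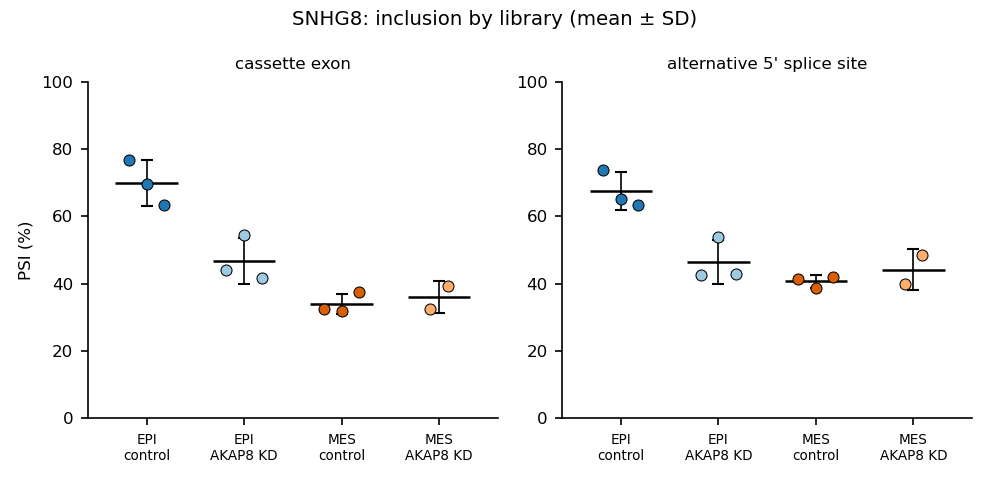
PSI in percent of the skipped SNHG8 exon and of the SNHG8 alternative 5′ splice site, with 1 point per library in each of the 4 groups and lines for the group mean ± SD. The EPI controls sit at 63.2 to 76.7 for the exon, above the EPI knockdown libraries at 41.6 to 54.5 and the MES control libraries at 32.0 to 37.4.

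The plot of SNHG8 inclusion also shows the second SNHG8 event, an alternative 5′ splice site. Its long form runs from 119199864 to 119200292, 429 bases, and its short form ends at 119199947. The short form is read from the same skipping junction as the exon, so the second event is not a separate measurement. Its PSI was 73.8, 65.1 and 63.2 in EPI controls and 42.5, 53.9 and 42.8 in the EPI knockdown. MES controls had 41.3, 38.6 and 42.1 and MES knockdown libraries 39.8 and 48.5. As for the exon, EPI controls stood apart from the other groups. The difference was -21.0 points in the EPI knockdown (FDR = 1.4e-05), -26.7 in EMT (FDR = 1.5e-16) and 4.2 in the MES knockdown against the 2 controls of its table (FDR = 0.89). With all 3 MES controls the states differed by 24.4 points (FDR = 0.00076). On the logit of PSI the EPI and EMT calls of this event were lost (limma, FDR = 0.89 and 0.066).

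ZFAS1 holds 3 C/D box snoRNAs ahead of successive exons, and 1 of its 2 short exons was called between the states. SNORD12C lies at chr20:47895477-47895565, SNORD12B at chr20:47896856-47896946 and SNORD12 at chr20:47897220-47897309 (GRCh37, plus strand). SNORD12C and SNORD12B end 75 bases before the next exon, and SNORD12 ends 130 bases before the 62-base exon at chr20:47897440-47897501. SNORD12 also lies within an exon of another annotated ZFAS1 transcript. Their sequences are shown because splicing around these exons is what frees them, with the first TGATGA (the C box) and the last CTGA (the D box) in capitals:
SNORD12C: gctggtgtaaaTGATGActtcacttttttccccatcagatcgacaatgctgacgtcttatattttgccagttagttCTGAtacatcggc
SNORD12B: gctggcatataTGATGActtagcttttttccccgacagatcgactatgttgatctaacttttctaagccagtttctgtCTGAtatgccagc
SNORD12: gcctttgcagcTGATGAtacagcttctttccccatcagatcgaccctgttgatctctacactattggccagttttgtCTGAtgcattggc
The 62-base exon follows in capitals, with 20 intron bases on each side:
ZFAS1 exon: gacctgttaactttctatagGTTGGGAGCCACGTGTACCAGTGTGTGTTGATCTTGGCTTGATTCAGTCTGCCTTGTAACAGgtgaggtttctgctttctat

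When the 86-base exon at 47897022-47897107 was present, the 62-base exon was included more in MES than in EPI controls. Its PSI was 55.7, 55.7 and 56.1 in EPI controls (55.8 ± 0.2, SD, n = 3) and 74.5, 72.0 and 64.4 in MES controls (70.3 ± 5.3, n = 3). All MES values lay above all EPI values, and the third MES control lay closest to them. The difference was 14.5 points (FDR = 2.3e-06, quasi-binomial test), and the call was lost with limma on the logit of PSI (FDR = 0.51). EPI knockdown libraries, at 53.8, 55.0 and 56.9, overlapped their controls (-0.6 points, FDR = 0.93). MES knockdown libraries, at 75.1 and 75.8, lay above all MES controls. Their difference was 2.2 points against the 2 controls of the knockdown table (FDR = 0.81) and 5.1 points against all 3.

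Set against the form that skips both exons, the 2 ZFAS1 exons had lower values in the EPI knockdown and higher values in the MES knockdown, below the threshold in each. For the 86-base exon PSI was 90.5, 91.0 and 88.1 in EPI controls, then 87.9, 83.5 and 81.2 with knockdown. MES controls had 89.6, 86.1 and 88.2 and MES knockdown libraries 92.4 and 93.2. Neither pair of groups overlapped, and they moved in opposite directions: -5.7 points in EPI (FDR = 0.52) and 5.0 in MES (FDR = 0.81). The MES value was 3.2 without MES control 2 and 6.7 without MES control 1. The difference between the states was 10.6 points (FDR = 0.04). It missed the threshold in 8 of 11 fits that left out 1 library (FDR 0.055 to 0.51) and with a trend not fitted robustly (FDR = 0.059). For the 62-base exon, read from the same skipping junction, PSI was 71.6, 71.9 and 70.4 in EPI controls and 62.2, 58.4 and 53.7 in the EPI knockdown, a difference of -13.2 points (unadjusted p = 0.00088, FDR = 0.44). The 2 MES controls of that table had 75.2 and 72.1, and the knockdown libraries 81.7 and 84.9, a difference of 9.6 points (FDR = 0.81).

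**Figure D2:**
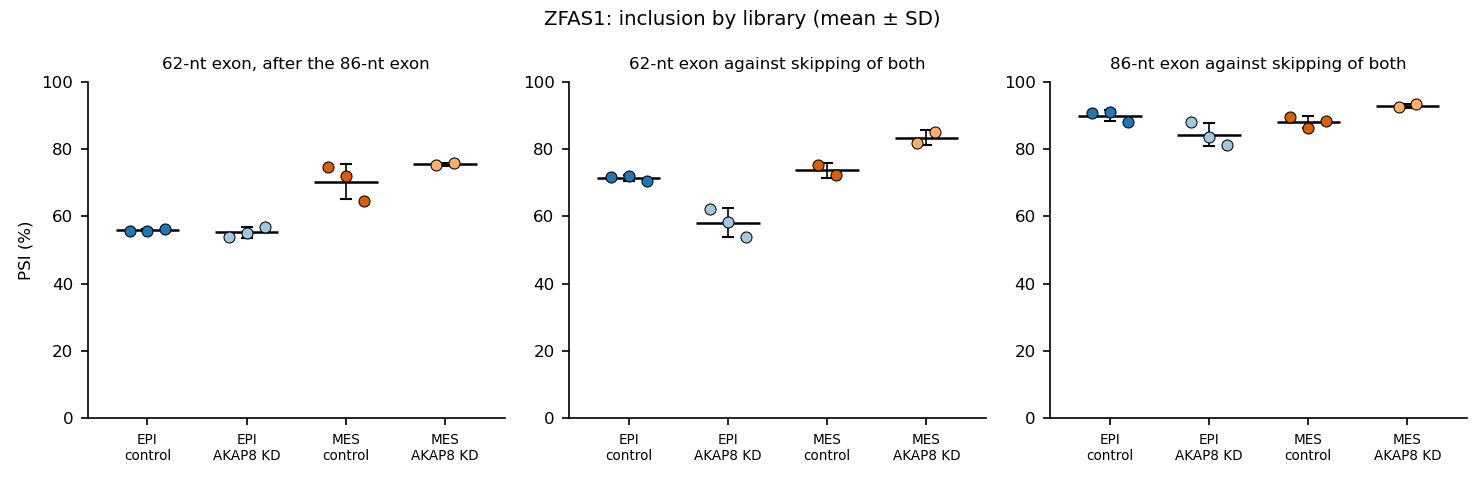
PSI in percent of the 3 ZFAS1 exon events, with 1 point per library in each group and lines for the group mean ± SD. In the panel of the 62-base exon after the 86-base exon the MES libraries, at 64.4 to 75.8, lie above the EPI libraries, at 53.8 to 56.9.

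SNHG12, a host of SNORD99 and of 3 H/ACA snoRNAs, kept an intron less often in the MES knockdown. The intron lies at chr1:28906100-28906423 (GRCh37, minus strand, 324 bases). Its ends are printed because they hold the splice sites that the reads tell apart, with exon bases in capitals. The first part is chr1:28906344-28906443 and the last part chr1:28906080-28906179:
SNHG12 retained intron, first part: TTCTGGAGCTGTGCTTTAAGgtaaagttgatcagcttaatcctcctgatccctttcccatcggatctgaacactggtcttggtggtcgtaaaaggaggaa
SNHG12 retained intron, last part: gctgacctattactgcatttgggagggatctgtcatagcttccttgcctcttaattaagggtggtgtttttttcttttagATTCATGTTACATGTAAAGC

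The PSI of the retained intron was 60.9, 68.1 and 70.1 in MES controls and 27.0 and 40.4 in the MES knockdown. Both knockdown libraries lay below every other library of the series. EPI controls had 53.4, 75.6 and 68.9 and EPI knockdown libraries 57.2, 51.2 and 78.1, and these groups overlapped widely. The first 2 MES controls had 187 retained against 60 spliced reads and 128 against 30, and the knockdown libraries 103 against 139 and 107 against 79. With the 2 controls of that table the MES difference was -30.8 points (FDR = 0.00014, quasi-binomial test), and 0.305% of all retained introns tested there were called. It was -3.8 points in the EPI knockdown (FDR = 1) and 0.4 in EMT. The difference between the states was -28.9 points (unadjusted p = 0.0052, FDR = 1), so an effect particular to MES was not shown. The MES call was lost with limma on the logit of PSI (FDR = 0.71).

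A GAS5 intron and an SNHG1 intron also had their lowest group values in the MES knockdown. The GAS5 intron was picked, from 3 listed in that comparison, because it passed the FDR limit there. A difference there was thus fixed by the choice and is no separate support. GAS5 is a host of C/D box snoRNAs whose spliced RNA builds up in arrested cells. Its intron PSI was 20.6, 17.6 and 25.7 in MES controls and 10.8 and 12.6 in the MES knockdown, without overlap. The difference from the 2 controls of that table was -7.4 points (FDR = 1.2e-06), past the FDR limit but under the 10-point limit that the SNHG12 intron passed, and it missed the FDR limit with limma on the logit of PSI (0.8). EPI controls had 18.8, 19.4 and 22.9 and EPI knockdown libraries 25.2, 11.4 and 24.9. EPI knockdown 2 stood apart from its group, at a value like those of the MES knockdown. The EPI difference was 0.1 points, and the difference between the states of -9.7 points was not called (FDR = 1). SNHG1, the other large C/D box host, had an intron PSI of 28.8, 23.6 and 33.7 in MES controls and of 21.5 and 18.9 with knockdown (-6.0 points against the 2 controls of the table, FDR = 0.37). It was -3.3 points without MES control 1 and -8.6 without MES control 2. In EPI it was 30.5, 32.9 and 37.7 in controls and 42.3, 25.3 and 33.1 in the knockdown, where library 2 was again the lowest.

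**Figure D3:**
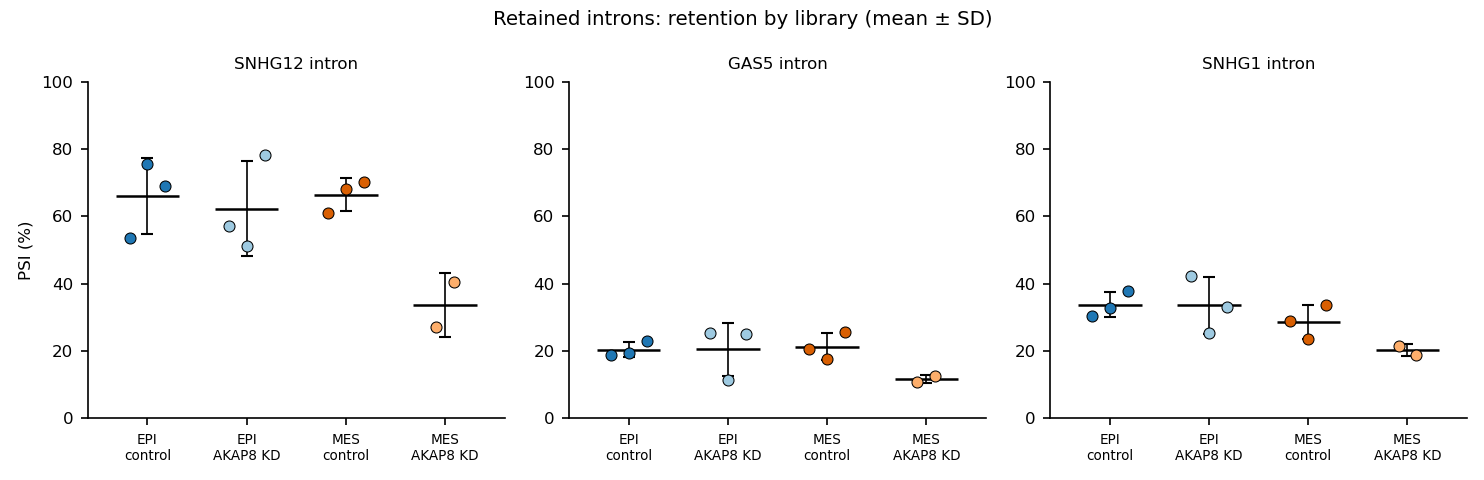
PSI in percent of 1 retained intron each of SNHG12, GAS5 and SNHG1, with 1 point per library in each group and lines for the group mean ± SD. The 2 MES knockdown libraries are the lowest of all in SNHG12 (27.0 and 40.4) and lie below the MES controls in GAS5 and SNHG1.

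No other host event was called. A GAS5 alternative 5′ splice site, which makes an exon of 77 or 38 bases, had a PSI of 57.1, 50.1 and 51.2 in EPI controls and 46.9, 44.2 and 47.1 in MES controls. The groups did not overlap, and the difference of -6.7 points passed the FDR limit (0.0077) but not the 10-point limit. It missed the FDR limit without EPI control 1 (-4.6 points, FDR = 0.28) or MES control 2 (-5.7 points, FDR = 0.17). SNHG6, a host of the C/D snoRNA SNORD87, had a 112-base exon with a PSI of 80.7, 79.2 and 84.2 in EPI controls and 72.3 to 80.7 in all other libraries, and no comparison called it. SNHG5 chose between a pair of mutually exclusive exons with a PSI of 54.1 to 58.5 in every library. SNHG7 included its 56-base exon almost always, at 97.9 to 100%, with 6 skipping reads in all. Of these reads 3, 1 and 1 were in the EPI controls and none in the EPI knockdown, where PSI was 100% in all 3 libraries. The groups did not overlap, and the difference of 1.4 points was not called (unadjusted p = 0.086, FDR = 0.76, quasi-binomial test; with limma on the logit of PSI, unadjusted p = 0.015 and FDR = 0.91). Differences of 10 points or more that missed the FDR limit were also found, besides that of ZFAS1. A pair of mutually exclusive SNHG12 exons, read at a mean of 188 junction reads per library, differed by -13.3 points in the EPI knockdown (FDR = 0.81), and in EMT, at 199 reads, by -10.9 points (FDR = 0.4). An SNHG12 exon read at a mean of 86 differed by -13.8 points in the MES knockdown (FDR = 0.81). The rest were 1 GAS5 exon, at 14.7 points in the EPI knockdown and 19.7 in EMT, and 1 SNHG1 event at 10.2 points in EMT, on 21.2 to 24.5 reads.

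Apart from splicing, ZFAS1 RNA rose in the MES knockdown and no other host passed both limits in any comparison. A gene's level is the sum of its skipped-exon junction reads, scaled for depth. It is comparable between libraries and not between genes, because a read over a junction shared by several events counts in each. A level was called at an absolute log2 fold change over 1 and an adjusted p under 0.05 (limma over 9014 genes). In the MES knockdown 1 of 8 hosts was called, beside 2.29% of all genes, and in the EPI knockdown 0 of 8, beside 0.189%. In EMT 0 of 8 were called, beside 12.5%. At an unadjusted p under 0.05 there were 3 hosts in the EPI knockdown (SNHG6, SNHG8 and ZFAS1), 4 in the MES knockdown and 2 in EMT, beside 9.77%, 21.7% and 36.2% of all genes. The median log2 fold change of the hosts was -0.30 in the EPI knockdown, 0.56 in the MES knockdown and -0.24 in EMT, and the median of all genes was within 0.01 of 0 in each.

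ZFAS1 stood at 3173, 2992 and 3061 reads in MES controls and at 7856 and 7511 in the MES knockdown. EPI controls had 3667, 3635 and 3106 and EPI knockdown libraries 2689, 3123 and 2355. The MES knockdown libraries were far above all others, which overlapped between states. The log2 fold change was 1.32 in the MES knockdown (SE 0.16, adjusted p = 0.0011, 2.50-fold) and -0.36 in the EPI knockdown (adjusted p = 0.42). The knockdown differences of the states were 1.68 apart on the log2 scale (SE 0.21, adjusted p = 0.02), the only gene of 9014 called there (0.0111%). That call was lost in 8 of 11 fits without 1 library, where the value was 1.57 to 1.71 and the adjusted p 0.051 to 0.22.

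SNHG5, a C/D box host, was next by adjusted p. Its level was 20879, 19154 and 19628 in MES controls and 42666 and 27111 in the MES knockdown, a log2 fold change of 0.78 (adjusted p = 0.044) under the fold limit. On the adjusted p alone 2 of 8 hosts passed in the MES knockdown, where 4.13% of all genes did. The 2 knockdown libraries differed from each other by more than the weaker of them differed from the controls, and the value was 0.45 without MES knockdown 1 (adjusted p = 0.33) and 1.10 without MES knockdown 2 (adjusted p = 0.033). The adjusted p also missed its limit without MES control 1 (0.093), 2 (0.13) or 3 (0.1), EPI control 1 (0.076), 2 (0.058) or 3 (0.062), or EPI knockdown 3 (0.053). SNHG12 had 547, 305 and 514 reads in MES controls and 738 and 854 in the knockdown (0.85, adjusted p = 0.14), without overlap. SNHG7 had 272, 212 and 188 against 350 and 340, again without overlap (0.64, adjusted p = 0.17). GAS5 had 39507, 35780 and 35980 against 62574 and 42658 (0.48, adjusted p = 0.27), and the value was 0.20 without MES knockdown 1 and 0.76 without MES knockdown 2. SNHG1, SNHG6 and SNHG8 had values of -0.14, 0.12 and 0.12. In all, 7 of 8 hosts had a value above 0 in the MES knockdown, where 48.9% of all genes did. In the same libraries all 5 measured epithelial markers had values below 0 (median -0.41, none called), and the part of such a shift in the host values was not tested.

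**Figure D4:**
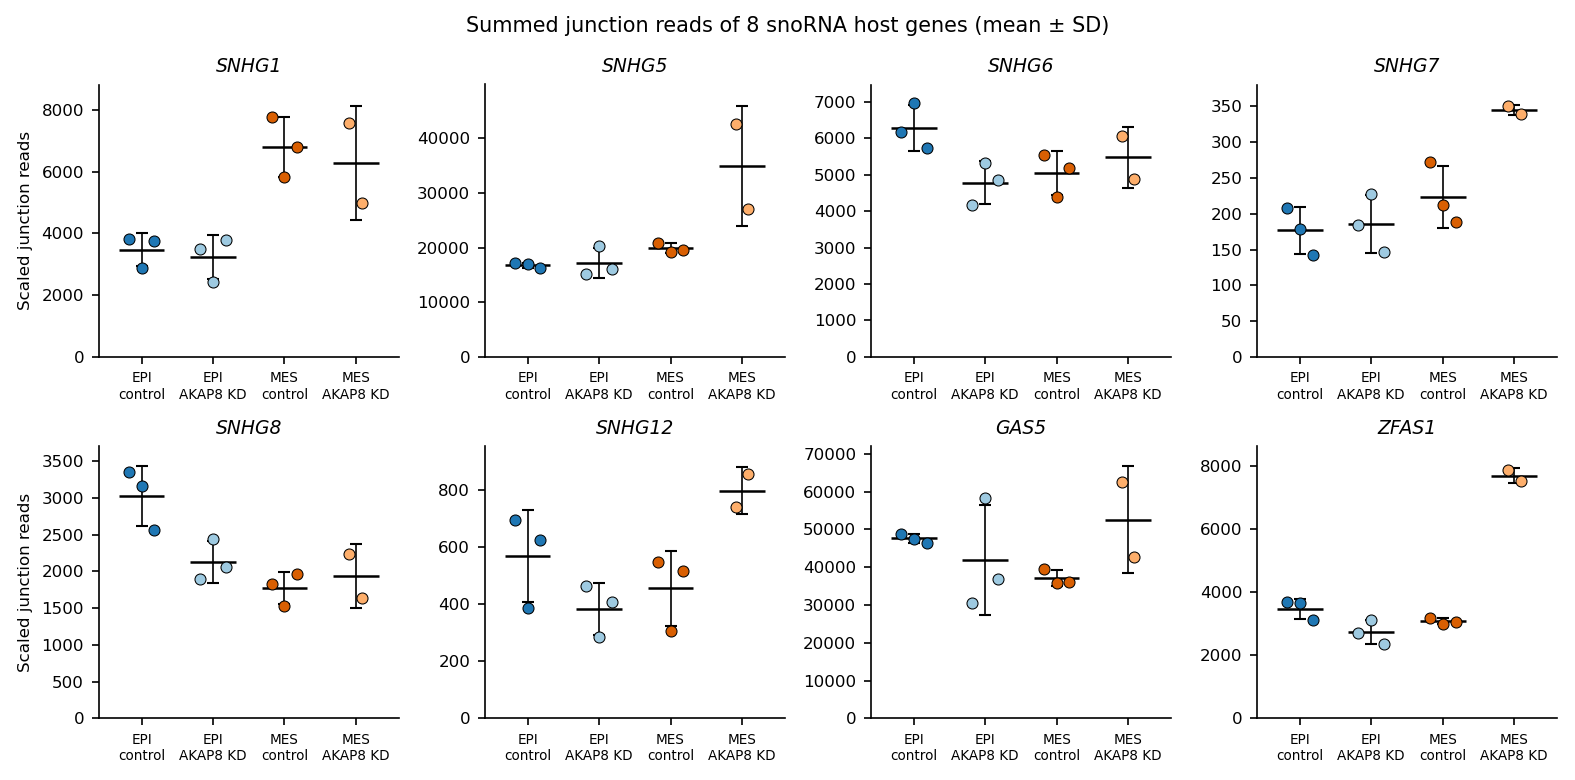
Scaled skipped-exon junction reads of the 8 host genes, with 1 point per library in each of the 4 groups and lines for the group mean ± SD, on an axis of its own for each gene. The ZFAS1 points of the MES knockdown, at 7511 and 7856, lie above all other groups, and the SNHG8 points of the EPI knockdown lie below the EPI controls.

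In the EPI knockdown 2 of 8 hosts had a value above 0, where 48.9% of all genes did, and none was called. SNHG8 had 3353, 3158 and 2567 reads in controls and 1892, 2446 and 2058 with knockdown (-0.50, adjusted p = 0.32), without overlap. SNHG6 had 6172, 6982 and 5731 against 4157, 5336 and 4848 (-0.40, adjusted p = 0.41), and SNHG12 had 693, 385 and 623 against 462, 283 and 406 (-0.55, adjusted p = 0.59). The SNHG12 value was -0.35 without EPI knockdown 2 and -0.81 without EPI control 2. GAS5 had 48890, 47505 and 46510 in controls and 30584, 58204 and 36858 with knockdown, so that EPI knockdown 2, the library with the low intron PSI, held more than any control while the other 2 held less. Between the states 2 hosts passed the adjusted p alone, where 23.9% of all genes did. SNHG1 was higher in MES controls, at 7762, 5812 and 6810 against 3809, 2863 and 3751 (log2 0.97, SE 0.21, adjusted p = 0.0049), just under the fold limit. It passed that limit without EPI control 1 (1.04), EPI control 3 (1.03) or MES control 2 (1.08). SNHG8 was lower, at 1830, 1531 and 1965 in MES controls (-0.77, adjusted p = 0.0064). A transcript with the SNHG8 exon yields 2 junctions in this sum and a transcript without it 1, so inclusion and level are tied. With reads divided by the length of their form, an alternative chosen after seeing the data, the value was -0.60 (adjusted p = 0.021).

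The 5′ ends of the hosts were read from RefSeq promoters (GRCh38.p14), for the 7 hosts other than SNHG6. Each line runs from 10 bases before the annotated start to 20 bases from it, with the longest run of C or T in capitals, searched on the transcript strand only:
SNHG12 start: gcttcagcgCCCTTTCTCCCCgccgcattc
GAS5 start: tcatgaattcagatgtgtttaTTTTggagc
SNHG8 start: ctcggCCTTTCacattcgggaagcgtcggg
SNHG5 start: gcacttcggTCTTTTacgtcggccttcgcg
SNHG7 start: CCTTCTCgtcctctgcgtgcgccggaggct
SNHG1 start: gagattcgttctcaTTTTTCTactgctcgt
ZFAS1 start: gccattcgTTCTTTCgcgtctgcggtgccc
A run of at least 6 was present in 6 of the 7, and in 30.4% of all 35116 starts. GAS5 has a longest run of 4, and in SNHG7 the longest run lies before the annotated start. Such a match describes the letters of the window and is not a measured start.

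AKAP8 peaks passed the limits over 2 of the 8 hosts, GAS5 in EPI and SNHG7 in MES. A peak counted at a log2 of immunoprecipitate over input of at least 2 and a −log10 adjusted p of at least 3, on the strand of the gene, and 21665 of 24637 EPI peaks and 26228 of 30390 MES peaks passed. In EPI 1 of 8 hosts had a peak, GAS5, beside 20.5% of genes with a skipped-exon event. In MES 1 of 8 had peaks, SNHG7, beside 12.6%, and the hosts are too few to set apart from these shares. SNHG8, ZFAS1 and SNHG12, where the splicing or level calls fell, had no peak in either list, and neither had SNHG1, SNHG5 or SNHG6. The lists merge replicates, so these counts have no replicate check. The GAS5 peak spans 7 bases of an annotated exon, chr1:173836015-173836021 (GRCh37, minus strand), with a log2 enrichment of 3.31 and a −log10 adjusted p of 7.38. It is shown in capitals with 40 bases on each side:
GAS5 peak with 40 bases on each side: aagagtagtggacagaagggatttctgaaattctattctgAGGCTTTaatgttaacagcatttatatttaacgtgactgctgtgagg

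SNHG7, a host of SNORA17A and SNORA17B, had 7 passing peaks in MES and none in EPI. The highest was at chr9:139617590-139617678 (minus strand), with a log2 enrichment of 3.94 and a −log10 adjusted p of 13.2. It overlapped 2 others of 3.81 and 3.77, and the 3 lay in the last intron, 10 to 115 bases before the last exon. The other 4 had enrichments of 2.68 to 2.90. In EPI a peak at 139617612-139617680 had an enrichment of 3.34, and its −log10 adjusted p of 2.601 kept it under the limit, so a difference between the states was not shown. All 7 lay within DIPK1B, a gene on the opposite strand, and 5 overlapped a DIPK1B exon, while no passing peak lay on the DIPK1B strand. The highest peak is printed with its runs of at least 3 G in capitals:
SNHG7 peak: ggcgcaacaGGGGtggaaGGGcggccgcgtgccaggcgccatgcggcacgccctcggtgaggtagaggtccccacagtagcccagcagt
Windows of 101 bases centred on the peaks were searched on the transcript strand for GGG with an A or T on either side of it, so that matches overlap in longer runs. All 8 passing host peaks held at least 1, as did 99.9% of EPI and 99.4% of MES peaks. Windows outside peaks were not searched, so the matches do not set peaks apart from other sequence.

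**Figure D5:**
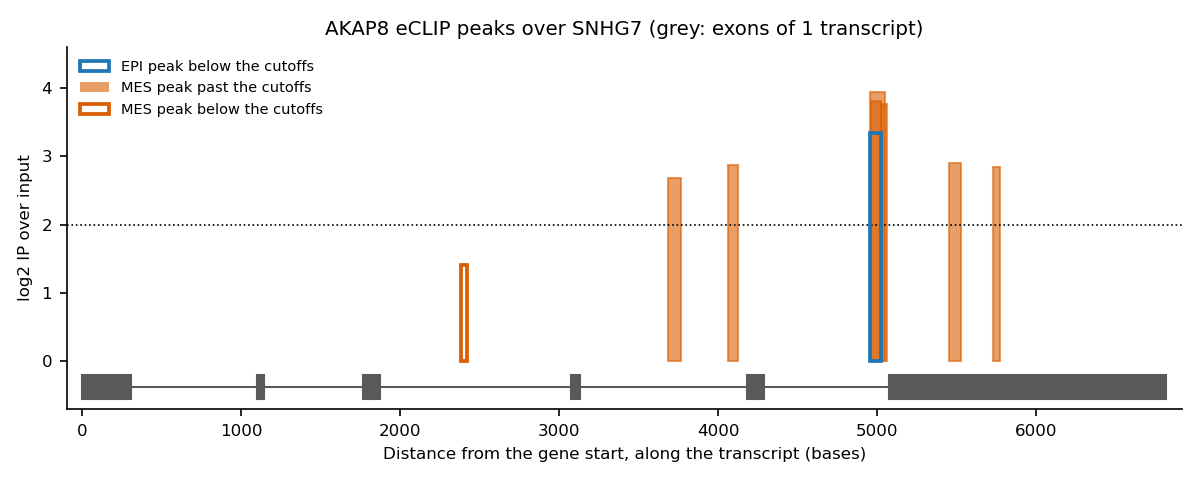
AKAP8 eCLIP peaks over SNHG7 by distance in bases from the gene start, with the height of each box giving the log2 of immunoprecipitate over input and grey blocks giving the exons of 1 transcript. The boxes crowd just before the last exon, where the MES peaks reach 3.94 and the EPI peak, outlined because it missed the limits, reaches 3.34.

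Other genes of the snoRNA pathway were described from lists. Ribosomal protein genes that host snoRNAs had values above 0 in the MES knockdown for 24 of 25, beside 48.9% of all genes, with a median log2 fold change of 0.38, none called and 8 at an unadjusted p under 0.05 (limma), 32% beside 21.7% of all genes. In EPI their median was -0.02, and in EMT it was -0.22 with 1 of 25 called lower, RPL13 of the large ribosomal subunit (-1.37, adjusted p = 0.031), beside 7.16% of all genes. Of 19 other noncoding hosts 5 were measured, with medians of -0.13 in the EPI knockdown, -0.39 in the MES knockdown and 0.26 in EMT. None was called, 3 had an unadjusted p under 0.05 in the MES knockdown, 60% beside the same 21.7%, and SNHG4 had a value of -1.07 in the MES knockdown (adjusted p = 0.053). Among 19 measured protein-coding hosts outside the ribosome none was called, 4 had an unadjusted p under 0.05 in the MES knockdown, 21.1% and so near the share of all genes, and TPT1, a growth-related cytoplasmic protein, had a value of 0.65 in the MES knockdown (adjusted p = 0.039). None of 15 measured proteins that bind or assemble snoRNAs was called, 3 had an unadjusted p under 0.05 in EMT, 20% beside 36.2% of all genes, and their EMT median was 0.05 with 8 of 15 above 0. On the adjusted p alone 2 of the 15 passed in EMT, beside 23.9% of all genes, and they went opposite ways. FBL, the methyltransferase of C/D particles, was at -0.82 (adjusted p = 0.019) and NOP56 at 0.61 (adjusted p = 0.027, limma). None of 12 measured factors of nonsense-mediated decay and the exon junction complex was called, and 2 had an unadjusted p under 0.05 in EMT, 16.7%. Their EMT median was 0.34, with 10 of 12 above 0 beside 51.1% of all genes. Of the splicing events of these lists none was called in either knockdown.

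The genes whose levels followed each host most closely over the 11 libraries were found by Pearson's r of log2 levels, as a description over libraries that share states. ZFAS1 went with FASTK (0.907), EPB41L4A-AS1 (0.903) and MAP1S (0.893), SNHG1 with GK (0.978) and SNHG5 with SMG5 (0.956). SNHG8 went with HDDC2 (0.914) and the ribosomal protein gene RPS24 (0.907), which was also among the 3 nearest to SNHG6. GAS5 went with CCNB1IP1 (0.939), SNHG7 with PEPD (0.975), SNHG6 with METTL9 (0.907) and SNHG12 with ENO3 (0.852).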

How the data were processed

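RNA-seq libraries (stranded, paired-end, polyadenylated RNA) were aligned by the authors with STAR 2.6.1a to GRCh37 with Gencode annotation, and rMATS counted junction reads per splicing event in 15 tables. The deposited values used here are whole-number junction reads in lists per event, with no replicate numbers. The MES knockdown tables hold 2 of the 3 MES controls. The 30 per-sample PSI columns were not used, nor were the p-values, FDRs, PSI differences and the DESeq2 gene table, which hold the study's own comparisons. eCLIP peaks were deposited as merged lists of −log10 adjusted p and log2 of immunoprecipitate over input. The strand settings stated for the junction reads and for the gene counts name opposite strands, and which fits these libraries was not settled here.

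Events with a mean of at least 20 junction reads per library were tested by a quasi-binomial F test with dispersion moderated by limma 3.58.1 (R 4.3.3) and never below 1, and FDRs were set within event type over the whole table. Gene levels were summed over 33107 skipped-exon events present in all 3 comparisons, scaled by median-of-ratios size factors, kept at 10 reads in at least 2 libraries, and tested as log2(level + 1) with limma over all 11 libraries with Benjamini-Hochberg adjustment, so that fold changes of low genes are understated. Both tests were run on simulated data, but no error rate from those runs is given here. Alternatives were a lower or no read filter, another dispersion trend, limma on the logit of PSI, other pseudocounts and library sizes, and leaving out each library. Peaks were joined to genes by Gencode v44 lifted to GRCh37, a later release than the study's, and 8550 of 9209 genes matched. All 8 genes and, from each, its deepest event by reads of the rarer form and those called were named. A GAS5 intron past the FDR limit in the MES knockdown was added, as were the ZFAS1 exon events that join the same downstream exon. The genes and the lists were chosen with earlier results of these data known. The reads are not independent molecules, so read depth covers counting error only.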

Additional observations from a re-analysis of the deposited data

Results flagged for a closer look

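The knockdown difference of 4 host values differed between the states by a test of that difference. The skipped SNHG8 exon had a PSI difference 25.1 points higher in the MES knockdown than in the EPI knockdown, and the SNHG8 alternative 5′ splice site, which shares its skipping reads, had one 24.4 points higher. The 86-base ZFAS1 exon had a difference 10.6 points higher in MES. The level of ZFAS1 had a log2 difference 1.68 higher in MES. The MES side of each rests on 2 knockdown libraries. With 2 or 3 libraries in each group, single libraries were not tested against their group.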

How the results depend on the processing

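Of 764 alternative values for 58 results, 9 reversed, and of the 613 that came with a test 570 kept their direction and their side of the threshold. With limma on the logit of PSI the called host events numbered 0 in the EPI knockdown, 0 in the MES knockdown and 1 in EMT, where 0, 8 and 543 events were called in all. With no limit on the PSI difference they numbered 2 in the MES knockdown and 6 in EMT. Leaving out 1 library at a time gave 1 to 3 host events whose knockdown difference differed between states, and 1 to 2 called host levels in the MES knockdown, 0 to 1 in EMT and 0 to 1 between states. On the adjusted p alone 2 host levels were called in the MES knockdown and 2 in EMT. The log2 fold change of AKAP8 without 1 library ran from -1.27 to -1.09 in the EPI knockdown and from -1.41 to -0.93 in the MES knockdown. Among all peaks of the lists 2 hosts had a peak in EPI, and at a log2 enrichment of at least 3 SNHG7 had 3 MES peaks. The values that reversed were the SNHG12 intron in the EPI knockdown (1 point without control 2 and 1.7 without knockdown 2, in a range of -11.8 to 1.7), the SNHG8 5′ splice site in the MES knockdown (-0.2 without knockdown 2, in a range of -0.2 to 8.5), and AKAP8 in EMT (-0.11 with total reads as library size, and -0.26 to 0.22 without 1 library). The cause was not tested. Leaving out a library of the MES knockdown tables left 1 in a group, which gave a difference with no test. No paired analysis was possible because the lists of libraries in the tables carry no replicate numbers. The SNHG1 level was lowest at place 2 of the list in all 4 groups and the summed mesenchymal markers at place 1, and an effect of place was not tested. The tests of level and splicing made no allowance for place.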
